A study of Mus musculus with 3 samples.

Results

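The 55 genes described here are the mouse Rab genes that remained after Rab27a, Rab27b, Rab32 and Rab38, the Rabs that build and carry melanosomes, were set aside. They were found by symbol among the 22698 genes of the deposited tables, 53 by the symbol of the mm9 annotation and 2 by a current symbol (Rab7b, annotated as 5430435G22Rik, and Rab42, annotated as Rab42-ps). RNA-seq was performed on melan-a cells, an immortalized line of mouse melanocytes on the C57BL/6J background that derives from Ink4a-ARF-/- animals, in 3 bioreplicates labelled 1, 3 and 4. All replicates were grown without further treatment in RPMI medium with 10% serum, 200 nM of the phorbol ester TPA and 200 pM cholera toxin. The study examined how the transcription factor TFAP2A acts in melanocytes alongside MITF. This single condition gave the level of each gene in cells grown in this medium with TPA and cholera toxin. With 1 line and 1 condition there are no groups to compare, and the spread given throughout is that between the 3 replicates, which may be technical.

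Rab proteins are small GTPases that mark the membranes of the secretory and endocytic pathways. A guanine nucleotide exchange factor (GEF) loads a Rab with GTP on its membrane, the GTP-bound form recruits effectors such as tethers and motors, and a GTPase-activating protein (GAP) returns it to the GDP-bound form. Each Rab carries lipid anchors that are attached by geranylgeranyl transferase with the help of a Rab escort protein, and GDP dissociation inhibitors extract it from the membrane for another round. In melanocytes this machinery also feeds the melanosome, a lysosome-related organelle that is built from endosomal membranes and receives enzymes from the Golgi.

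Levels are FPKM, reads per kilobase and per size of the library, scaled by the authors with the trimmed mean of M values (TMM), so levels of different genes can be set side by side per length. Which length was used is not given in the sources used here, and the length of the joined exons, which brought low values nearest to whole reads, was taken for the estimates of depth. The estimated library sizes were 53900000, 46900000 and 66400000 reads in replicates 1, 3 and 4, at which 3 reads on a gene of 1 kb come to 0.0557, 0.0640 and 0.0452 FPKM. These floors and all intervals of counting cover counting error only. The melanocyte label was checked against 10 marker genes, of which 9 were at or above 1 FPKM in every replicate, and their summed level was 5785 to 6624 FPKM. The exception, Kit, lay between 0.59 and 0.78 FPKM. The marker lists of other cells were low: fibroblast markers summed to 1.56 to 1.93 FPKM (1 of 5 at or above 1 FPKM, Col1a1), leukocyte markers to 0.76 to 1.60 FPKM, all of it Cd68, with Ptprc, Cd3e and Itgam listed at 0, keratinocyte markers to 0.37 to 0.72 FPKM with Krt1 at 0, and endothelial markers to 0.01 to 0.03 FPKM. Cdkn2a, the gene at the Ink4a-ARF locus, was listed at 19.2, 16.5 and 24.3 FPKM. The labels do not say which exons were deleted, so this level does not check the genotype. In bulk RNA, fewer cells with a transcript and less RNA per cell cannot be told apart.

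The 150 bases before the annotated start are printed for 6 members to show how CpG content near the start varied. They are the 3 with the highest mean, the 2 listed at 0 in every replicate, and Rab9b, which had the lowest CpG ratio of the 55 and was chosen for it. The sequences were read from mm9 on the strand of the gene, 5′ to 3′, with CpG dinucleotides in capitals. The first 3 belong to the 3 highest members, all on the minus strand: Rab7 at chr6:87995265-87995414, Rab1b at chr19:5107020-5107169 and Rab5c at chr11:100599530-100599679.
Rab7: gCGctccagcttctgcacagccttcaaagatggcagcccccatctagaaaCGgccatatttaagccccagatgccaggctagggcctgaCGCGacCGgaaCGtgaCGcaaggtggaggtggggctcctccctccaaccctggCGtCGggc
Rab1b: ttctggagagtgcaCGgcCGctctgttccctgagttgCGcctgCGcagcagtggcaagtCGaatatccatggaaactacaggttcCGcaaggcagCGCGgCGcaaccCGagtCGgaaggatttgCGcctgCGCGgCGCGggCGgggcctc
Rab5c: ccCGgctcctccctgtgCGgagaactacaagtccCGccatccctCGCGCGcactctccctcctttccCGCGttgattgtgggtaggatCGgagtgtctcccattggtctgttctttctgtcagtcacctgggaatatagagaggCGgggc
They held 9, 17 and 10 CpG dinucleotides.

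The next 3, also on the minus strand, are Rab9b at chrX:133403295-133403444 (listed at 0.02 to 0.04 FPKM), Rab3c at chr13:111071110-111071259 and Rab39 at chr9:53514338-53514487 (both listed at 0 in every replicate).
Rab9b: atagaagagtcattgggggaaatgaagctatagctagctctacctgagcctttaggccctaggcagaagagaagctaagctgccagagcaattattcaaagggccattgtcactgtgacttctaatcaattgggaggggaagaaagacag
Rab3c: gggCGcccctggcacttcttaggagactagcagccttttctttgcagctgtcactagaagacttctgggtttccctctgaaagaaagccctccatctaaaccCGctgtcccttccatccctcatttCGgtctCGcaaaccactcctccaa
Rab39: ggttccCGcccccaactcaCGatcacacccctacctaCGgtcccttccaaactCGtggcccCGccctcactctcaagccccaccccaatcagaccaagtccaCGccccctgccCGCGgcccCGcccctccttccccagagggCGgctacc
Rab9b held 0 CpG dinucleotides, Rab3c 4 and Rab39 10.

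Of the 55 Rab genes, 42 (76.4%) were at or above 1 FPKM in all 3 replicates, against 44.1% of all genes. There were 31 at or above 10 FPKM and 3 at or above 100 FPKM in every replicate, levels for which the share of all genes is not given here. The other 13 lay below 1 FPKM, and 2 of the 55 were listed at 0 throughout, against 31.4% of all genes. The median of the mean levels was 13.9 FPKM for the members and 0.277 FPKM for all genes, and among genes at or above 1 FPKM it was 18.0 FPKM for the 42 members and 11.2 FPKM for all 10011. No member lay between 0.38 and 1.08 FPKM in any replicate, so the line at 1 FPKM passed through an empty stretch of the order.

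**Figure D1:**
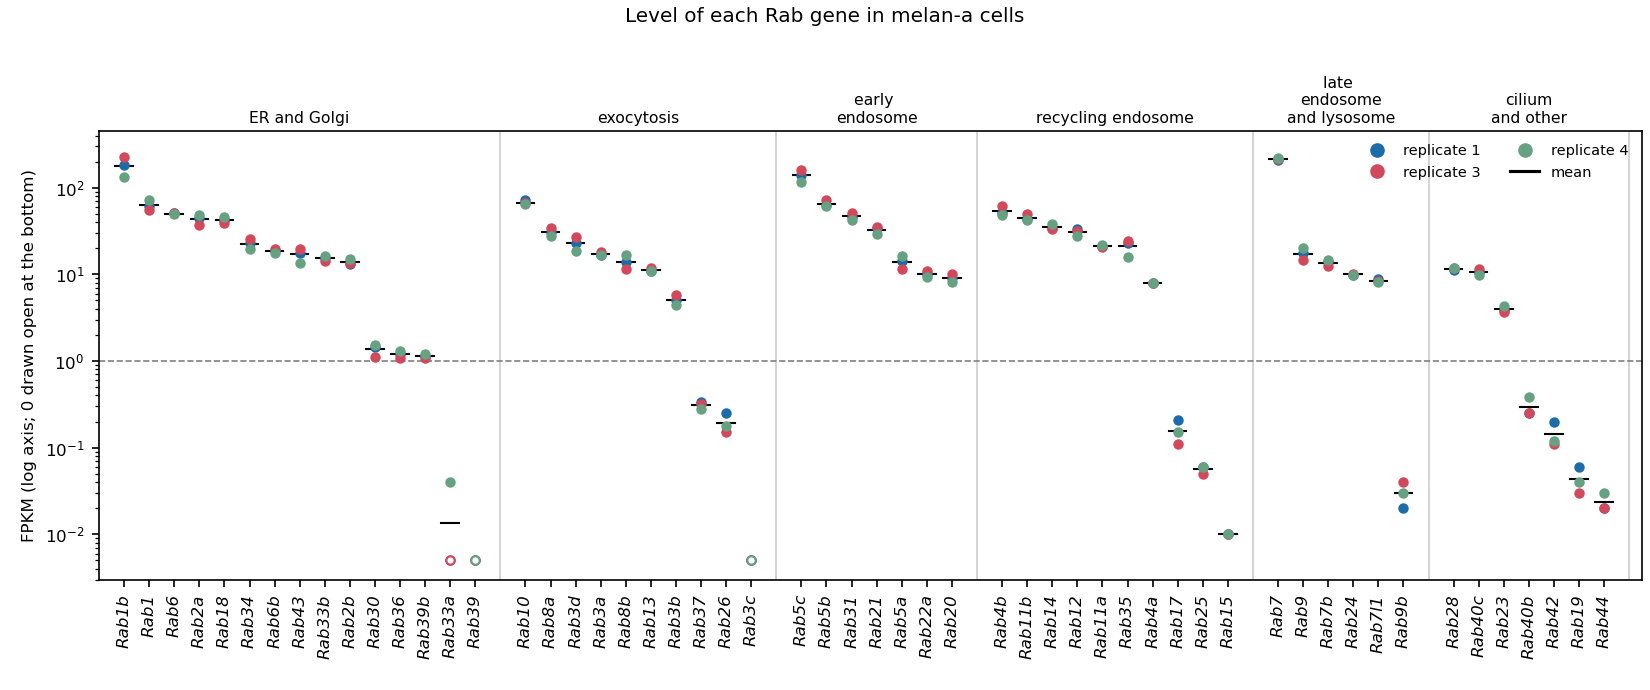
FPKM of each of the 55 Rab genes (log axis) in replicates 1, 3 and 4 (points) with the mean (bar), grouped by trafficking step and ordered by mean within a step. Open points stand for 0, and the dashed line marks 1 FPKM. Rab7, Rab1b and Rab5c stand above 100 FPKM, and 13 genes lie below the dashed line.

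Each member was placed at the trafficking step for which it is best known, although many Rabs act at more than 1. The 15 genes of the ER and Golgi summed to 471 ± 34.6 FPKM (SD, n = 3), which was 32.2% ± 0.540 of the summed level of all members. The 7 early endosome genes made up 21.7% ± 1.16, the 6 late endosome and lysosome genes 18.0% ± 1.502, the 10 recycling endosome genes 14.7% ± 0.0446, the 10 exocytosis genes 11.6% ± 0.223 and the 7 genes of the cilium and other roles 1.84% ± 0.0818. The order of these shares was the same in every replicate, but the groups differ in size. By the median of the mean levels the early endosome came first (32.8 FPKM), then the recycling endosome (21.1 FPKM). The ER and Golgi (17.1 FPKM), exocytosis (12.6 FPKM), the late endosome (11.8 FPKM) and the cilium and other group (0.293 FPKM) followed. Rab7 alone had a mean of 212 FPKM in the late endosome sum of 262 FPKM. Only the early endosome group had all its members at or above 1 FPKM (7 of 7), and the cilium and other group had 3 of 7.

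The summed level was concentrated in a few genes. The 3 highest members held 36.3% ± 2.44 and the 10 highest 63.1% ± 1.91 of the summed level of all members, which was 1463, 1546 and 1376 FPKM in replicates 1, 3 and 4.

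**Figure D2:**
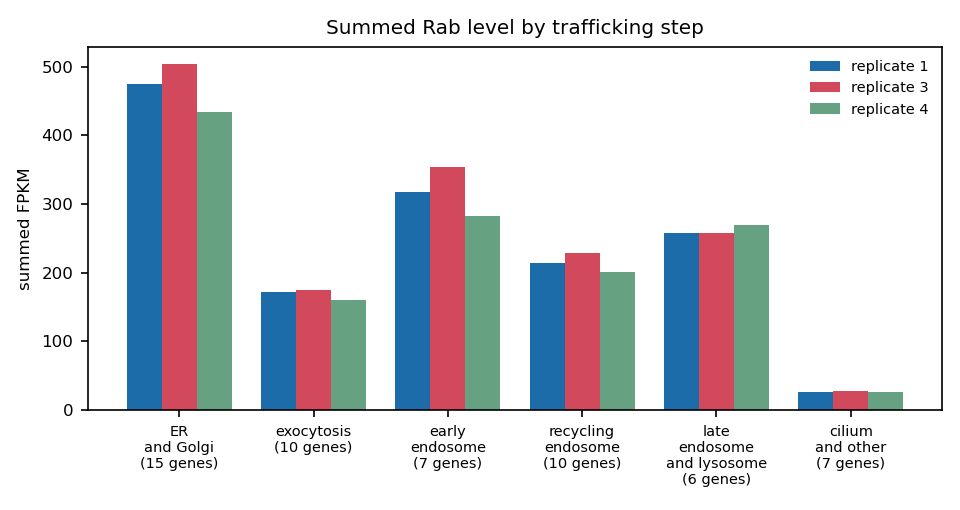
Summed FPKM of the Rab genes of each trafficking step, with 1 bar per replicate and the number of genes in brackets. The ER and Golgi group is the highest in each replicate (434 to 503 FPKM) and the cilium and other group the lowest (26.3 to 27.5 FPKM).

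Among the genes of the ER and Golgi, Rab1b and Rab1 came first, the paralogs that direct transport from the ER to the Golgi. Rab1b (ENSMUSG00000024870, chr19:5099207-5107019) was at 182.5, 225 and 133 FPKM in replicates 1, 3 and 4. Its paralog Rab1 (chr11:20101435-20126859) was at 62.0, 55.5 and 71.2 FPKM. The ranges did not overlap, and the replicate in which Rab1b was highest, replicate 3, was the one in which Rab1 was lowest.

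Rab6, which acts in retrograde traffic through the Golgi, was among the steadiest members at 51.1, 50.9 and 49.1 FPKM. Its paralog Rab6b was at 18.8, 19.5 and 17.8 FPKM. Rab2a, which works between the ER and the Golgi, was at 44.3, 37.4 and 48.0 FPKM. Rab2b was lower in each replicate, at 13.0, 13.4 and 15.2 FPKM, and the ranges of both pairs were apart. Rab34, a Golgi Rab linked to lysosome positioning and ciliogenesis, was at 23.2, 25.3 and 19.7 FPKM, while its paralog Rab36 was just above the threshold at 1.21, 1.09 and 1.32 FPKM. Rab33b, a Golgi Rab that binds the autophagy protein ATG16L1, was at 15.4, 14.2 and 16.1 FPKM, and its paralog Rab33a was listed at 0, 0 and 0.04 FPKM, the last corresponding to about 3.08 reads.
Rab43 was at 17.9, 19.8 and 13.7 FPKM. Of the remaining 4 genes of this step, Rab18, which is found on the ER and on lipid droplets, had a mean of 42.7 FPKM. Rab30 was at 1.46, 1.12 and 1.54 FPKM and Rab39b at 1.14, 1.08 and 1.19 FPKM, and with Rab36 these were the members next above the threshold. Rab39, the paralog of Rab39b, was listed at 0 in every replicate, where 3 reads would come to at most 0.0215 FPKM.

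The exocytosis genes were led by Rab10, which delivers cargo from the Golgi and endosomes to the plasma membrane, at 71.3, 66.8 and 64.3 FPKM. Rab8a, its close relative in exocytosis and ciliogenesis, was at 30.6, 34.02 and 28.0 FPKM, and Rab8b at 13.7, 11.4 and 16.9 FPKM. The 4 Rab3 genes, which prime vesicles for regulated secretion, lay between 0 and 26.8 FPKM. Rab3d was at 23.3, 26.8 and 18.6 FPKM and Rab3a at 16.7, 18.1 and 16.5 FPKM. Rab3b was lower, at 5, 5.75 and 4.38 FPKM, and Rab3c was listed at 0 throughout, where 3 reads would come to at most 0.00718 FPKM. Rab13, known from tight junctions, had a mean of 11.3 FPKM. Rab37 and Rab26, paralogs on secretory granules, were at 0.34, 0.32 and 0.28 FPKM and at 0.25, 0.15 and 0.18 FPKM.

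All 7 early endosome genes were expressed. The Rab5 genes, which drive homotypic fusion of early endosomes, were ordered Rab5c, Rab5b and Rab5a. Rab5c (ENSMUSG00000019173, chr11:100576323-100599529) was at 141, 162 and 116 FPKM, Rab5b at 62.4, 73.0 and 61.4 FPKM, and Rab5a at 14.1, 11.6 and 16.5 FPKM. Rab5c made up 63.5% ± 3.16, Rab5b 29.96% ± 1.52 and Rab5a 6.55% ± 1.91 of the summed level of the 3 paralogs, so the paralog most often used as the early endosome marker was the lowest of them. Rab31, which acts between the trans-Golgi network and endosomes, was at 46.1, 51.7 and 42.3 FPKM and its paralog Rab22a at 10.1, 10.8 and 9.28 FPKM. Rab21, which binds integrins during endocytosis, had a mean of 32.8 FPKM, and Rab20 a mean of 9.03 FPKM.

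Among the recycling endosome genes, Rab4b was first at 51.5, 60.7 and 47.9 FPKM, and its paralog Rab4a, which like it serves rapid recycling, was the steadiest of the 42 at 7.89, 7.85 and 7.91 FPKM. Rab11b was at 43.0, 49.6 and 42.2 FPKM. Rab11a, the better studied paralog in slow recycling, was at 21.1, 20.5 and 21.96 FPKM. Rab25, the Rab11 relative of epithelia, was listed at 0.06, 0.05 and 0.06 FPKM, which is 3.92 to 6.67 reads. Rab17, another Rab of polarized epithelia, was at 0.21, 0.11 and 0.15 FPKM. Rab15 was listed at 0.01 FPKM in each replicate, about 2.16 to 3.06 reads. Rab35, which acts in rapid recycling and cytokinesis, was at 23.0, 24.1 and 15.95 FPKM, and replicate 4 stood below the other two. Rab14 (35.3 FPKM) and Rab12 (31.0 FPKM), which act between endosomes, the Golgi and lysosomes, completed the step with means above that of Rab11a.

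Rab7 (ENSMUSG00000079477, chr6:87949100-87995264), which governs the maturation of late endosomes and their fusion with lysosomes, had the highest mean of the 55 genes and was 225th of all genes. It was at 207, 212 and 217 FPKM. Its paralog Rab7b, which acts in transport from endosomes to the trans-Golgi network, was at 13.9, 12.4 and 14.7 FPKM. Rab9, which returns mannose 6-phosphate receptors from late endosomes to the Golgi, was at 17.4, 14.6 and 19.9 FPKM, and Rab9b at 0.02, 0.04 and 0.03 FPKM. Rab24 (10.0 FPKM), linked to autophagy, and Rab7l1 (8.49 FPKM), a partner of the kinase LRRK2, were the other 2 genes of this step above the threshold. Rab7b and Rab7l1 lie 153.7 kb apart on chromosome 1, and Rab7 and Rab43 186.9 kb apart on chromosome 6. Neighbours on the chromosome were thus at unlike levels in the second case.

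Of the last group, Rab28 (11.7 FPKM), Rab40c (10.7 FPKM) and Rab23 (3.93 FPKM) were expressed. Rab23 restrains Hedgehog signalling at the primary cilium, and Rab40c carries a SOCS box that recruits a ubiquitin ligase. Rab40b, its paralog, was at 0.25, 0.25 and 0.38 FPKM and, with Rab37 and Rab26, was next below the threshold. Rab42, Rab19 and Rab44 had means of 0.143, 0.0433 and 0.0233 FPKM.

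The 4 Rabs that were set aside gave a scale for these levels. Rab38, which delivers melanogenic enzymes to melanosomes, was at 263, 232 and 267 FPKM, and its lowest replicate was above the highest replicate of Rab7, 217 FPKM, and of Rab1b, 225 FPKM. Rab32, its partner in this delivery, was at 56.9, 53.2 and 59.9 FPKM, between Rab1 and Rab4b by mean. Rab27a, which links melanosomes to myosin Va, was at 19.4, 17.1 and 21.1 FPKM, close to Rab6b, and Rab27b was at 0.42, 0.38 and 0.54 FPKM. The summed level of the 4 was 330 ± 24.0 FPKM, and that of the 55 members 1462 ± 85.1 FPKM.

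Ordered by mean, 9 of 41 neighbours among the 42 expressed members had ranges over the replicates that did not overlap. Neighbours are the closest pairs, because the same replicates set the order. The share of such neighbours among all expressed genes is not given here. In FPKM the widest gap followed the 3 highest, where the lowest replicate of Rab5c, 116 FPKM, was above the highest of Rab10, 71.3 FPKM. As a ratio the gap between Rab23 and Rab30 was wider, with a lowest replicate of 3.65 FPKM above a highest of 1.54 FPKM. Rab1b overlapped both Rab7 and Rab5c, while the lowest replicate of Rab7, 207 FPKM, was above the highest of Rab5c, 162 FPKM. No neighbours from Rab10 down to Rab18 had ranges apart. Over all pairs of expressed members, 772 of 861 (89.7%) had ranges apart, near the 88.3% of all pairs of expressed genes.

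In 11 of 16 paralog families at least 2 members were expressed. In each of these 11, the ranges of the 2 highest paralogs did not overlap. Over all pairs of expressed genes the share with ranges apart was 88.3%. The higher paralog was above the lower in 3 of 3 replicates. Which paralog was called the higher was set by the mean of these same replicates. An exact permutation test by sign flips of the paired log2 ratios (two-sided) gave p = 0.25 for every family, which is the smallest p that 3 replicates allow, so no family could pass 0.05. The ratios of FPKM ran from near equality to more than an order of magnitude. Rab34 exceeded Rab36 by 14.9 to 23.2 times, and Rab7 exceeded Rab7b by 14.8 to 17.2 times. Rab4b was 6.05 to 7.73 times Rab4a, and Rab31 4.56 to 4.77 times Rab22a. Rab2a was 2.78 to 3.401 times Rab2b and Rab6 2.60 to 2.76 times Rab6b. The log2 ratio varied least between replicates in the Rab6 pair (SD 0.040) and the Rab31 pair (SD 0.043).
The families with less than a 2-fold difference in some replicate were Rab1, Rab5, Rab11, Rab8 and Rab3. Rab1b was 1.87 to 4.06 times Rab1, Rab5c 1.89 to 2.26 times Rab5b, Rab11b 1.92 to 2.42 times Rab11a, Rab8a 1.65 to 2.98 times Rab8b and Rab3d 1.13 to 1.48 times Rab3a. The last of these depended on gene length: per length of the longest annotated transcript, in place of the joined exons, the mean log2 ratio of Rab3d over Rab3a was -0.00020 in place of 0.39. Many exonic 50-mers of Rab5b (60.1%), Rab11b (46.4%) and Rab7 (35.7%) also occur elsewhere in mm9. Their part in the ratios of these families was not tested.

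**Figure D3:**
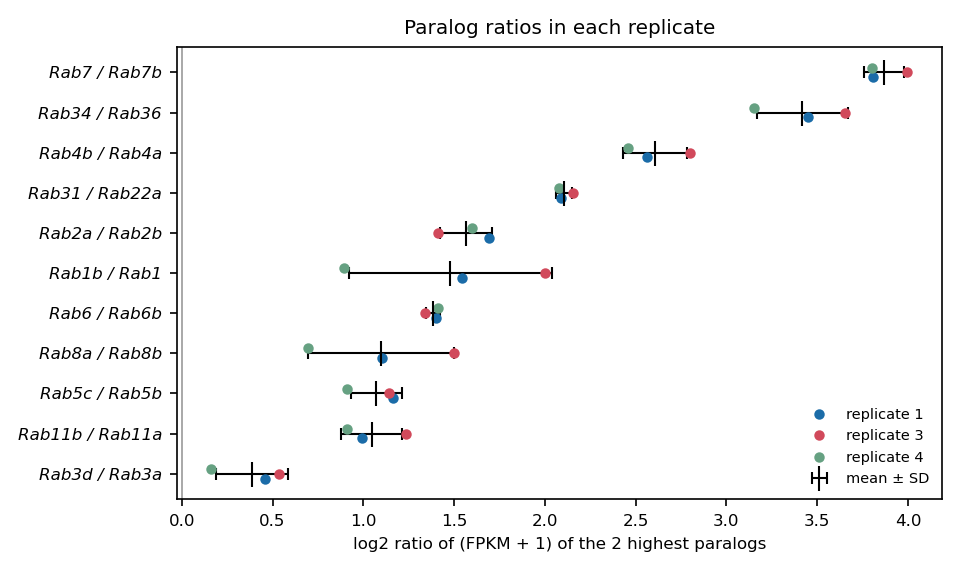
The log2 ratio of (FPKM + 1) of the 2 highest paralogs in each of 11 families, in replicates 1, 3 and 4 (points), with the mean and SD (bars). All points lie to the right of 0, from a mean of 0.39 for Rab3d over Rab3a to 3.87 for Rab7 over Rab7b, and the Rab1 pair has the widest spread (SD 0.56).

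Some members have exon sequence that is not unique. For 36 of 55 members no exonic 50-mer was found elsewhere in mm9, and for 6 members more than 5% were. These counts are not given here for all genes. The highest shares were 60.1% for Rab5b, whose copies lay outside annotated genes or in Gm13991, 46.4% for Rab11b, mostly in Rab11b-ps2, and 35.7% for Rab7. The shares for Rab10, Rab14 and Rab34 were 6.50%, 6.19% and 6.12%. How reads on such copies were assigned is not given in the sources used here, and their part in the levels of these 6 genes was not tested. Rab4b shares 65.0% of its exon bases with transcripts annotated on its own strand, Mia1 and AC157553.1. Mia1 was listed at 0, 0.04 and 0 FPKM, and the part of this overlap in the level of Rab4b was not tested. Another 11 members have exon bases opposite a gene on the other strand, among them Rab20 (21.5%), Rab6 (18.99%) and Rab39b (18.6%). The kit marks strand, but the strand setting of the counting is not given in the sources used here.

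The replicates differed most between 3 and 4. Of the 42 expressed members, 2 (Rab1b and Rab35) were more than 1.5 times apart between them, against 18.6% of all expressed genes, and both were higher in replicate 3, by 0.76 and 0.59 on the log2 scale. Rab8b, Rab43 and Rab3d followed, with ratios of the highest to the lowest replicate of 1.49, 1.45 and 1.44. The median coefficient of variation over the 3 replicates was 9.09% for the members and 11.4% for all expressed genes. The spread of the members was a median of 5.05 times what counting alone would give at the estimated depth, and 35 of 42 members exceeded 2 times that spread. These values are not given here for all expressed genes, so they do not set the members apart from other genes.

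The difference between replicates 3 and 4 went with GC content of the transcript. Of 17 members above 50% GC, 14 were higher in replicate 3, and of 11 members below 45% GC, 9 were higher in replicate 4. Across the 42 members, which come from the same libraries and so are no replicates of each other, the log2 ratio and GC content had a Spearman's rho of 0.707 (Pearson's r 0.717), and over all 10007 expressed genes with a GC value it was 0.779. Rab1b has 58.4% GC and Rab1 40.9%, and this pair, whose members lie 17.5 points apart, was the one with the widest spread of its ratio. The Rab8 pair, 8.60 points apart, came next with an SD of the log2 ratio of 0.40. The Rab11 pair, 13.4 points apart, had an SD of 0.17, below the 0.25 of the Rab34 pair, 3.90 points apart. The part of GC content in the spread of paralog ratios was not tested. After the median log2 ratio of genes of like GC content was subtracted, Rab1b and Rab35 were both at 0.31 and 0 of 42 members were over 1.5 times apart. Some members moved nearer to 0 and others away from it, such as Rab11a, from -0.10 to 0.55. The share of all expressed genes over 1.5 times apart after this subtraction is not given here. Rescaling each replicate to the same summed FPKM shifts every log2 ratio of replicates 3 and 4 by -0.14. Under it, 17 in place of 24 of the 42 were higher in replicate 3. Then 5 were over 1.5 times apart, 1 higher in replicate 3 and 4 higher in replicate 4. The median log2 ratio after rescaling was -0.083 for the members and -0.12 for all expressed genes. The share of all expressed genes over 1.5 times apart after rescaling is not given here.

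**Figure D4:**
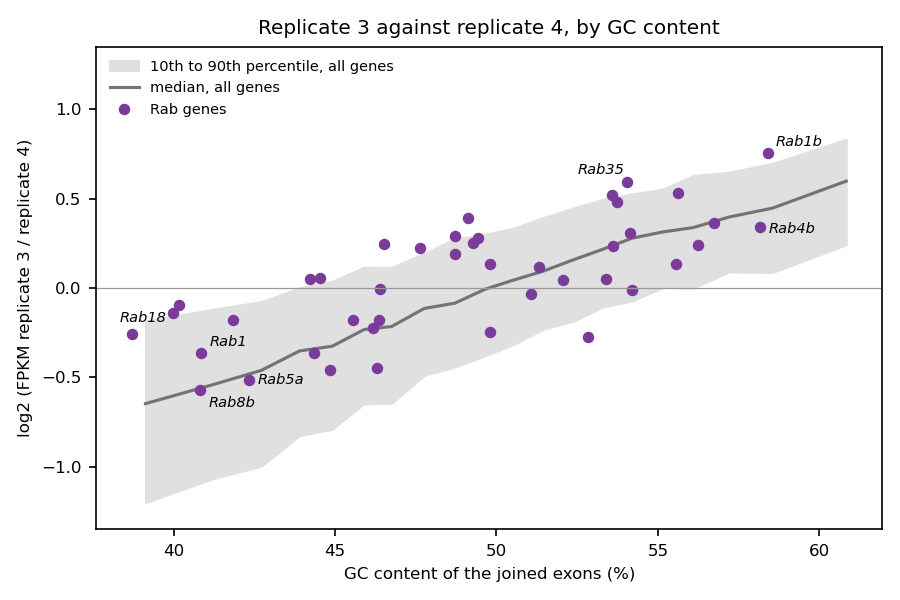
The log2 ratio of FPKM in replicate 3 over replicate 4 against the GC content of the joined exons (%). Points are the 42 Rab genes at or above 1 FPKM, and the line and band are the median and the range from the 10th to the 90th percentile of all such genes in 20 bins of GC content. The points tend to rise with GC content, from Rab18 (-0.26 at 38.7% GC) to Rab1b (0.76 at 58.4% GC). These members lie 0.39 and 0.31 above the median of their bins. The lowest point is Rab8b (-0.57 at 40.8% GC).

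The promoter letters were compared over 300 bases, from 250 before to 50 after the annotated start. CpG content is given as the observed number of CpG dinucleotides over the number expected from the C and G content. The median was 0.75 for the 42 expressed members and 0.36 for the 13 others. A ratio of 0.5 or more was found for 39 of 42 expressed members (92.9%) and 2 of 13 others (15.4%). Over protein-coding genes the same shares were 83.1% of those expressed and 28.6% of the rest, so the members differed in the same direction as genes at large. Among the 3 expressed members below 0.5 were Rab3b at 0.36 and Rab9 at 0.43. The reverse was seen for Rab39 at 0.81 and Rab40b at 0.69, both below 1 FPKM.

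**Figure D5:**
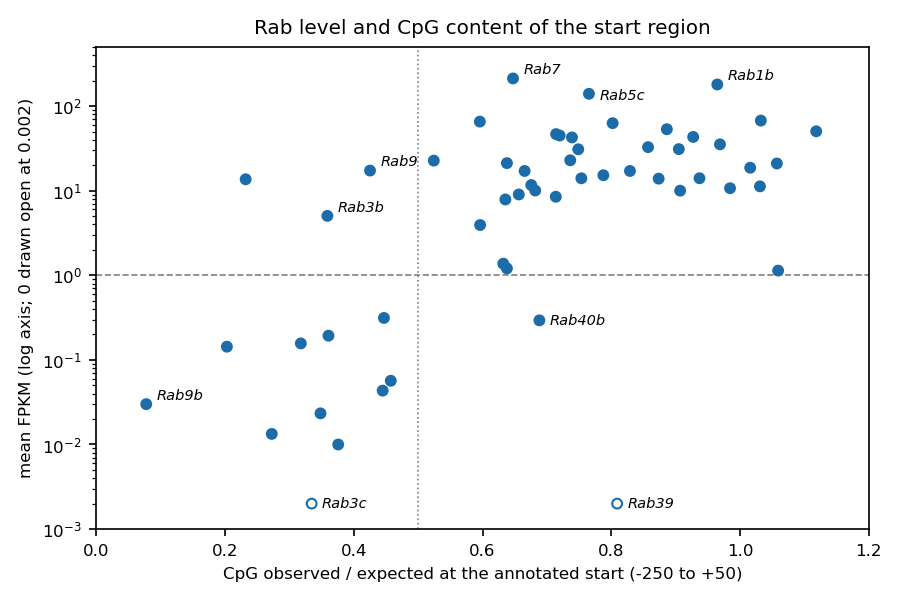
Mean FPKM (log axis, 0 drawn as open points at the bottom) of the 55 Rab genes against the CpG observed to expected ratio at the annotated start. The dashed line marks 1 FPKM and the dotted line a ratio of 0.5. Most expressed genes are at the upper right (39 of 42) and most others at the lower left (11 of 13).

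Short motifs were counted in the same 300 bases on both strands, with the shares of all 22309 protein-coding genes beside them. The E-box CACGTG, a letter string that MITF can bind, was present at 5 of 55 members (9.09%, against 7.80% of all), namely Rab21, Rab5a, Rab24, Rab20 and Rab23. The E-box CATGTG was at 3 members (5.45%, against 12.0%), Rab34, Rab13 and Rab40b. The palindrome GCCNNNGGC, a string that TFAP2 factors can bind, was at 17 members (30.9%, against 18.4%), 12 of the 42 expressed and 5 of the 13 others. CCAAT was at 26 members (47.3%, against 37.9%), the GC box GGGCGG at 35 (63.6%, against 44.0%) and TATAAA at 4 (7.27%, against 13.4%), Rab7, Rab3b, Rab39b and Rab42. Among genes at or above 1 FPKM the shares of members and of protein-coding genes were 28.6% and 24.2% for GCCNNNGGC, 71.4% and 64.6% for GGGCGG, 47.6% and 38.5% for CCAAT, 7.14% and 6.61% for TATAAA, 11.9% and 10.6% for CACGTG, and 4.76% and 8.28% for CATGTG. The strings GGGCGG and GCCNNNGGC can overlap in GC-rich sequence. A match is a string of letters and not a measured site.

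The genes that lipidate, extract and switch Rabs were also measured. Of 8 genes for prenylation and GDP dissociation, 7 were at or above 1 FPKM in every replicate, and the eighth, the escort protein gene Chml, was at 1.32, 0.88 and 1.51 FPKM. The other escort protein, encoded by Chm, was at 6.34, 4.18 and 8.10 FPKM. The dissociation inhibitor gene Gdi2 was the highest of the list, at 136, 130.4 and 136 FPKM. Rabac1, which encodes the prenylated Rab acceptor, was at 60.9, 78.3 and 47.4 FPKM. The subunits of the transferase, Rabggtb and Rabggta, were at 15.8, 12.4 and 20.5 FPKM and at 10.4, 12.2 and 9.73 FPKM, and Rabif, a chaperone of Rabs without nucleotide, was at 7.36, 7.87 and 7.51 FPKM. Chm, Chml, Rabggtb and Gdi2 were lowest in replicate 3, and Rabac1, Rabggta and Rabif were highest in it.

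Of 35 GEF genes, 29 were expressed (82.9%), as were 29 of 36 GAP genes (80.6%) and 34 of 41 effector genes (82.9%), against the 44.1% of all genes. The highest GEF genes were Trappc1 and Trappc3, subunits of the TRAPP complexes that activate Rab1, with means of 83.1 and 51.2 FPKM, and Dennd5a at 66.8 FPKM. Among the GAP genes, Tbc1d9b, Tbc1d13 and Tbc1d20 were highest at means of 40.2, 36.9 and 33.9 FPKM. TBC1D20 acts on Rab1 and TBC1D13 on Rab35. The highest effector genes were Plin3 at 85.5 FPKM, whose product was described as a partner of Rab9 and coats lipid droplets, Micall2 at 38.3 FPKM, a partner of Rab13, and Lrrk1 at 34.9 FPKM.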

How the data were processed

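RNA-seq libraries from 3 melan-a replicates were made with a stranded mRNA kit and sequenced in several lanes each. According to the methods and the submitters' notes, the authors called reads with CASAVA 1.8.2, trimmed the 5′ ends, aligned reads to mm9 with STAR 2.3.0e, removed rRNA reads and counted with HTSeq 0.5.3p3 on an Ensembl annotation. They deposited FPKM values scaled by TMM and rounded to 2 decimals. The conversion of counts to FPKM is not given in the sources used here.

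Positions, exon lengths, GC content, promoters and symbols came from an mm9 gene annotation, which held 22324 of the 22698 genes, and the mm9 genome. Library sizes were estimated from low FPKM of genes with 1 transcript, as the size between 30000000 and 80000000 reads that gave numbers nearest to whole reads (mean distance 0.0307 to 0.0487 reads over 50 to 65 genes per replicate). Joined-exon lengths gave values nearer to whole reads than longest-transcript lengths in all 3 replicates, over few genes with several transcripts (25, 38 and 10 in replicates 1, 3 and 4). The mean distances were 0.170, 0.127 and 0.115 reads for joined exons and 0.200, 0.246 and 0.203 reads for the longest transcript. No count test was run, since these sizes are estimates and there is 1 condition.

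A gene was called expressed at 1 FPKM or more in every replicate. Ratios of paralogs used a pseudocount of 1 and the exact sign-flip permutation test. Values per replicate were given for the 10 members with the highest mean, the 2 highest of each paralog family, the 5 expressed members with the largest ratio between replicates, the 3 members next above and below 1 FPKM, the prenylation genes and the 3 highest of each other regulator list (as means), of which 1 gene is not reported here. Rab3b, Rab3c, Rab5a, Rab15, Rab17 and Rab25 were added to these after their values were seen. The members and all lists were chosen with earlier results of these data known, and the promoter comparisons were chosen after values were seen. Scripts were tested on simulated data. Software was numpy 2.4.6, pandas 2.3.3 and matplotlib 3.10.9 under Python 3.11.15. Alternatives were other thresholds and pseudocounts, no filter, rescaling to a sum of 1000000, the median or mean over replicates, longest transcript lengths, GC adjustment and each replicate left out. Matching members by annotation symbol alone was added after seeing the data.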

Additional observations from a re-analysis of the deposited data

How the results depend on the processing

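No paired analysis was possible because there is 1 group, and the paired ratios of paralogs compare genes within a library. The count of 42 expressed members was 39 at a threshold of 2 FPKM, 41 by annotation symbols alone, and 42 under the other alternatives and with each replicate left out. With longest transcript lengths the share of the summed level was 31.3% for the ER and Golgi, 11.02% for exocytosis, 20.5% for the early endosome, 16.3% for the recycling endosome and 1.94% for the cilium and other roles, and the log2 ratio of Rab3d over Rab3a turned to -0.00020. Under these lengths 10 of 11 paralog families had ranges apart. Members over 1.5 times apart between replicates 3 and 4 numbered 1 with a pseudocount of 1, 5 after rescaling and 0 after GC adjustment, in place of 2. The shares of all expressed genes under these alternatives are not given here. With 1 replicate left out, expressed members stayed at 42 and paralog families with ranges apart at 11, while pairs apart ran from 90.01% to 95.4%, where fewer replicates narrow the ranges. The shares ran from 32.01% to 32.5% for the ER and Golgi, 21.1% to 22.3% for the early endosome and 17.1% to 18.6% for the late endosome. Depth limits Rab33a, Rab15, Rab39 and Rab3c, whose means did not reach the 3-read floor of every replicate, and their absence is not shown.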
